A study of Mus musculus with 12 samples.

Results

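The replication licensing genes described here are 10 mouse genes: the 6 subunits of the MCM2-7 helicase ring (Mcm2, Mcm3, Mcm4, Mcm5, Mcm6 and Mcm7), the loading factors Cdc6 and Cdt1, and the activation factors Mcm10 and Cdc45. They were taken by gene symbol from the 35652 genes listed for the cultured and fetal libraries, and by Entrez ID in the P7 libraries. All 10 were found in all 12 libraries and all 10 passed the filter on low counts, with counts between 4 and 1896 reads per gene and library.

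In G1, the origin recognition complex and CDC6 bind replication origins and, with CDT1, load the MCM2-7 ring onto DNA as an inactive double hexamer, the step called licensing. Geminin holds CDT1 back outside G1, and in S phase CDC45 and the GINS complex join MCM2-7 to form the active CMG helicase, with MCM10 acting at its activation. In the fetal testis, male germ cells leave the cell cycle and stay arrested until after birth, when they resume division and give rise to spermatogonia, the cells from which germline stem cell (GSC) cultures are derived.

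The series measured polyadenylated RNA by SC3-seq, a 3′-end sequencing method for small RNA inputs, in male germ cells taken from testes at E16, E17 and P7 (genotype Vasa-RFPTg/0), and in cultured GSCs of the Acrosin-EGFP; beta-Actin-EGFP (AAG) line. The GSC libraries came from Stag3 KO line 1, Stag3 KO line 2 and the wild type (WT), all with the EGFP transgenes, and each of the 6 groups had 2 libraries. STAG3 is a subunit of cohesin, the ring complex that holds and folds chromosomes. Whether each KO line is 1 clone and how many animals were pooled in a library was not given in the sources used here. Nor was how germ cells were isolated, or whether the 2 libraries of a group came from separate cultures or animals. The p-values therefore rest only on the spread between libraries of the same group, which may be technical. The test pooled that spread over the groups of a fit and moderated it with the spread of other genes. Levels are given in RPM (reads per 1000000 reads of genes in the library, mitochondrial genes, spike-ins and transgenes left out), and fold changes come from edgeR's quasi-likelihood test with TMM scaling and Benjamini-Hochberg adjustment over all genes tested, with calls at an adjusted p under 0.05.

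Total counts, spike-ins included, ran from 1938644 to 4596607 reads per library. Ddx4, a germ cell RNA helicase, stood between 415 and 815 RPM in all 12 libraries. Dazl, another germ cell marker, named after its values were seen, differed more between groups. It had 441 to 637 RPM in fetal and 1439 to 1476 RPM in P7 libraries, against 1537 to 1786 RPM in WT GSCs. Stag3 itself was counted at 295 to 304 RPM in KO1 GSCs and 137 to 152 RPM in KO2 GSCs, against 385 to 420 RPM in WT GSCs; where the deletion lies was not given in the sources used here, so 3′-end reads do not check the knockout. Artificial ERCC spike-in RNA made up 1.22% to 1.52% of reads at E16, 0.194% to 0.231% at E17, 4.69% to 5.85% at P7 and 2.80% to 3.41% in GSCs. The amount added per library was not given in the sources used here, so whether these shares reflect RNA content was not tested.

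Promoter sequences of 9 of the 10 genes were matched in RefSeq (GRCm38.p6), each window holding 250 bases before and 50 after the start site; Mcm4 was not among them. An E2F-type motif (TTTCCCGC, TTTCGCGC, TTTGGCGC or TTTGCCGC, on either strand, overlapping matches included) was found for 6 of the 9 genes (Mcm3, Mcm5, Mcm6, Mcm7, Cdc6 and Cdt1), against 2.6% of the 27025 genes with such windows. The Cdc6 window (chr11:98907901-98908200, plus strand) lies inside the annotated gene, which begins at 98907709, and so does its match. Mcm7 had a further window, which held no E2F-type match. The start sites of its windows lie inside the annotated gene, which ends at 138172111. E2F factors are transcription regulators of S-phase genes. The CCAAT motif was found for 7 of the 9 genes, against 41.1% of all genes, and the CHR motif (TTTGAA or TTTAAA), an element of many G2/M promoters, for 3 of the 9, against 30.6%. The 250 bases before the start site are given for Mcm2, the gene with the largest difference between fetal germ cells and GSCs, for Mcm6, the gene lower in Stag3 KO GSCs, and for Mcm10, the gene that differed between E17 and E16. Mcm2 (minus strand) lies at chr6:88898781-88899030, Mcm6 (minus strand) at chr1:128359706-128359955 and Mcm10 (minus strand) at chr2:5012792-5013041. Capitals mark E2F-type matches.
Mcm2: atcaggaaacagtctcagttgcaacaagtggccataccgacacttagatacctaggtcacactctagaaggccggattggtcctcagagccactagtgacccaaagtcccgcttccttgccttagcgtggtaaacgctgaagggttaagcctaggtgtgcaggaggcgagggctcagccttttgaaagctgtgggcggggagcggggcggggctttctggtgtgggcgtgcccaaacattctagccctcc
Mcm6: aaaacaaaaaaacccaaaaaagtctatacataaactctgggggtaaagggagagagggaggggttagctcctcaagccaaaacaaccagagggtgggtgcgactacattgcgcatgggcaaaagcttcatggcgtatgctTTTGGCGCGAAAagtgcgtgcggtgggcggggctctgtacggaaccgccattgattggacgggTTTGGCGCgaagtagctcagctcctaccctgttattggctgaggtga
Mcm10: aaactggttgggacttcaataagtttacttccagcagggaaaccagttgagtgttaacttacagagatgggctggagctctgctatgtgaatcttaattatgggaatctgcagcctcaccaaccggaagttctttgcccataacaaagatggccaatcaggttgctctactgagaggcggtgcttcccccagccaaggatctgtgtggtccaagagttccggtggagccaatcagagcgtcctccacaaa
The Mcm6 stretch held 3 matches, of which TTTGGCGC at positions -110 to -103 and GCGCGAAA at -106 to -99 overlapped, both counted from the start site. The Mcm2 and Mcm10 windows held none, nor did that of Cdc45. The Mcm2 stretch held 1 CCAAT-box match (ATTGG, minus strand) at -175 to -171 and 1 CHR match (TTTGAA) at -70 to -65. The Mcm5 window likewise held an overlapping pair, TTTCGCGC at -153 to -146 and GCGCCAAA at -149 to -142. A match describes the letters in these windows and no more.

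The 10 genes summed to 852 to 978 RPM in fetal and 2085 to 2287 RPM in P7 libraries, against 2371 to 2376 RPM in WT GSCs. All 10 genes were lower in E16 and E17 germ cells than in WT GSCs when libraries were scaled by TMM, whereas scaling by the ERCC totals shifted the median of all genes by 2.64 (log2) and left 8 of the 10 higher and none lower. Relative to the median of all genes the difference was -1.75 (log2) under both scalings. A change of scaling moves all genes of a comparison by nearly the same amount, so this agreement follows from the calculation and tests nothing. The results on the germ cells in vivo are therefore stated relative to the other genes of the same library. In libraries made from many cells, fewer cells expressing a gene and less of its RNA per cell cannot be told apart. The 10 called lower compare with 32.3% of 15827 genes called lower, and in all 10 every fetal library lay below every WT library, as in 27.6% of all genes. The median log2 fold change was -1.52 over the 10 genes and 0.23 over all genes.

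Among the ring subunits, Mcm2 had the largest difference. Mcm2 had 66.6 and 58.4 RPM at E16 and 72.8 and 57.0 RPM at E17, against 456 and 468 RPM in WT GSCs. The 4 fetal libraries sat close together, far below both WT libraries. This was a log2 fold change of -3.00 ± 0.11 (SE, adjusted p = 8.64e-24, edgeR). Mcm4 had 55.7 and 50.7 RPM at E16 and 77.4 and 90.0 RPM at E17, against 209 and 233 RPM in WT GSCs. Mcm5 had 95.4 and 73.6 RPM at E16 and 68.8 and 81.1 RPM at E17, against 243.1 and 243.2 RPM in WT GSCs. For both, the fetal and WT libraries did not overlap, with log2 fold changes of -1.86 for Mcm4 and -1.75 for Mcm5. The smallest differences in the ring were those of Mcm6 and Mcm7. Mcm6 had 149 and 156 RPM at E16 and 173 and 182 RPM at E17, against 331 and 296 RPM in WT GSCs. Mcm7 had 266 and 241 RPM at E16 and 248 and 270 RPM at E17, against 477 and 462 RPM in WT GSCs. Their log2 fold changes were -1.06 and -1.01, and that of Mcm3, at 84.1 to 140 RPM in fetal cells against 251 and 257 RPM in WT GSCs, was -1.24.

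Both loading factors were lower in fetal cells. Cdc6, the ATPase that recruits MCM2-7, had 7.5 and 1.4 RPM at E16 and 5.2 and 6.8 RPM at E17, against 22.1 and 33.4 RPM in WT GSCs. It was the least abundant of the 10 in reads, and its fetal counts went down to 4 reads, close to the floor of 3 counts, which gives it the widest error (log2 fold change -2.63 ± 0.30). Cdt1, which brings MCM2-7 to the origin, had 68.1 to 87.3 RPM in the 4 fetal libraries, against 172 and 155 RPM in WT GSCs, a log2 fold change of -1.19. Of the activation factors, Cdc45, the helicase cofactor, had 38.8 to 54.4 RPM in fetal cells, against 148 and 155 RPM in WT GSCs. Mcm10 had 30.3 and 52.8 RPM at E16 and 26.6 and 18.3 RPM at E17, against 63.4 and 73.5 RPM in WT GSCs. For neither gene did the fetal and WT libraries overlap, and the log2 fold changes were -1.84 for Cdc45 and -1.28 for Mcm10. Reads of Cdc45 may include those of Ufd1 on the other strand and of Gm52240, and reads of Mcm7 those of Ap4m1 on the other strand and of Mir25, Mir93 and Mir106b inside it, because whether counting used strand was not given in the sources used here.

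**Figure D1:**
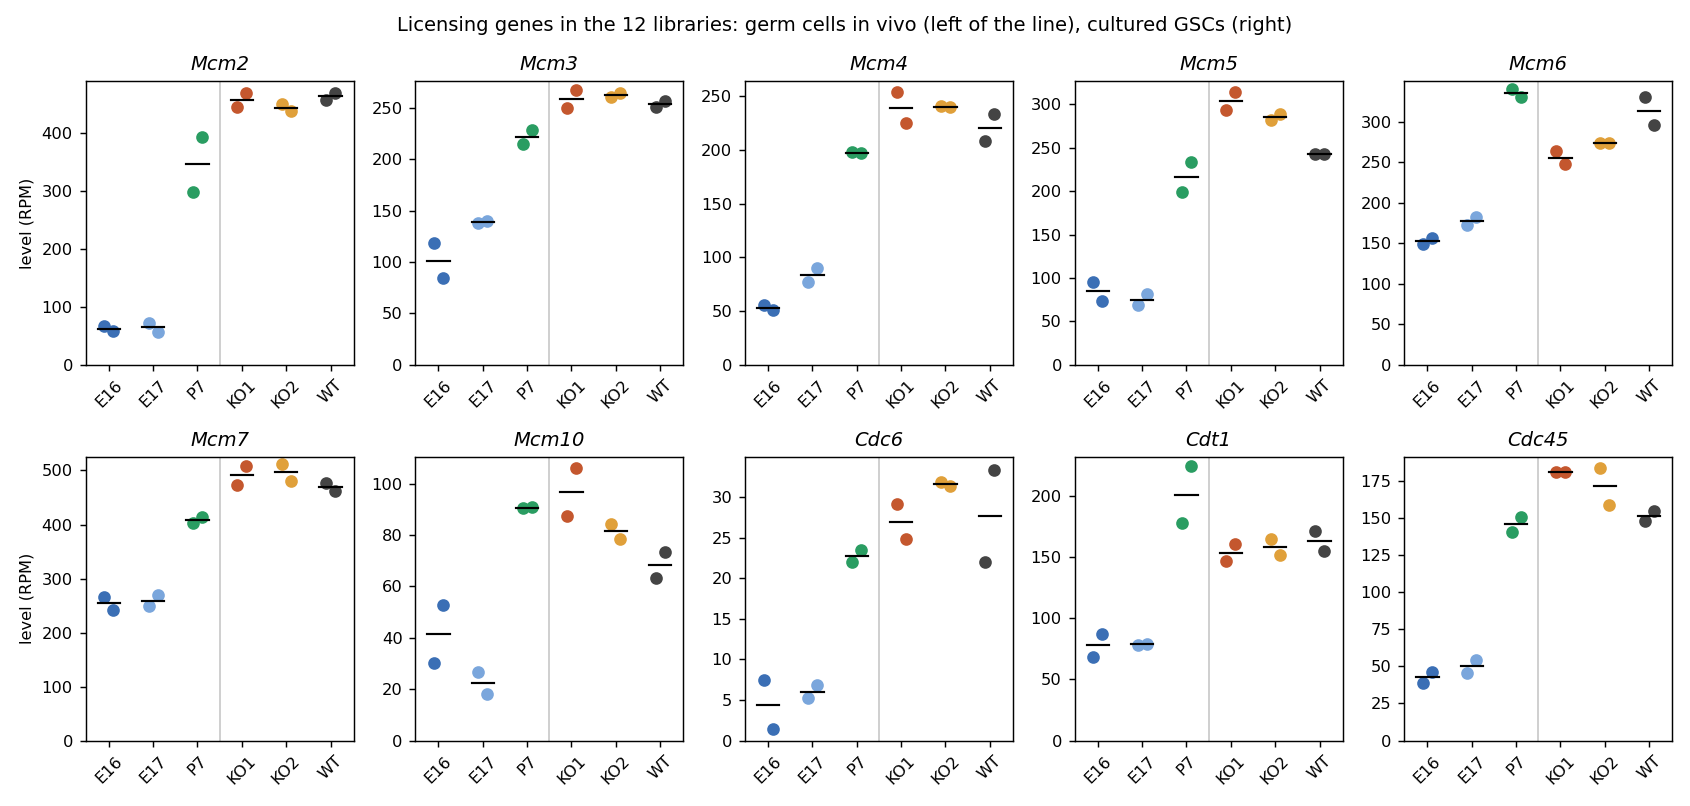
Level in RPM (linear axis from 0) of each licensing gene in the 12 libraries, with E16, E17 and P7 germ cells left of the grey line and KO1, KO2 and WT GSCs right of it. Points are libraries and bars the means of 2; Mcm2 sits at 57.0 to 72.8 RPM in the 4 fetal libraries, against 456 and 468 RPM in WT GSCs, on a scale of reads per library that ERCC scaling would shift.

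The fetal difference was not equal across the ring subunits. Mcm2 made up 8.83% of the summed MCM2-7 reads at E16, 8.16% at E17 and 19.96% at P7, against 23.55% in WT GSCs. In single libraries the Mcm2 share was 6.96% to 9.35% in the 4 fetal libraries, against 23.21% and 23.9% in WT GSCs. Mcm7 took the reverse position, with 31.92% to 36.3% of the sum in fetal libraries, against 24.25% and 23.59% in WT GSCs. Mcm6 made up 19.79% to 23.53% in fetal libraries, against 16.81% and 15.1% in WT GSCs. These shares compare a gene with itself across libraries and do not depend on the scaling. The MCM2-7 sum was 664 to 820 RPM in fetal and 1653 to 1797 RPM in P7 libraries, against 1959 to 1966 RPM in WT GSCs.

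**Figure D2:**
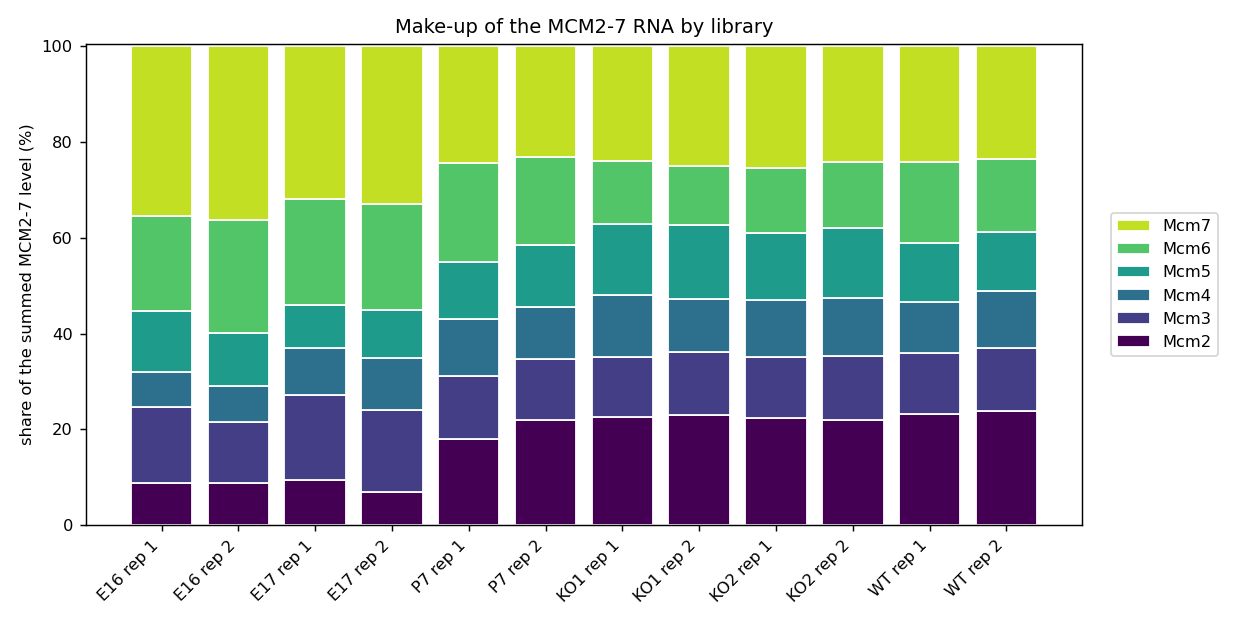
Share of the summed MCM2-7 level (%) taken by each subunit in each library, stacked from Mcm2 at the bottom to Mcm7 at the top, with the in vivo groups first and WT GSCs last. The lowest block, Mcm2, holds 6.96% to 9.35% in the 4 fetal libraries, against 23.21% and 23.9% in WT GSCs; shares do not depend on scaling.

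At P7, when male germ cells have resumed division, the 10 genes stood above their fetal share. All 10 were higher at P7 than in fetal germ cells (the mean of E16 and E17) under TMM scaling, and all 10 were lower under ERCC scaling. ERCC scaling shifted the median of all genes by -3.17 (log2). Relative to the median of all genes, the median of the 10 was higher by 1.64 under TMM and 1.65 under ERCC scaling. As above, the calculation makes these values alike. Under TMM, 32.7% of 14776 genes were called higher, and in all 10 licensing genes every P7 library lay above every fetal library, as in 33.5% of all genes. The median log2 fold change was 1.49 over the 10 genes and -0.15 over all genes. Taken against E17 alone or E16 alone, all 10 were again called higher, with medians of 1.598 and 1.181. This comparison and the one of fetal cells with WT GSCs share the 4 fetal libraries. The P7 tables list 34896 genes, against 35652 in the others, and hold 0 counts for mitochondrial genes, so in each comparison with P7 the age and this difference in the tables cannot be told apart.

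Mcm2 had 298 and 393 RPM at P7, against 57.0 to 72.8 RPM in the fetal libraries. It averaged 346 ± 67.1 RPM at P7 (SD, n = 2) and 63.7 ± 7.39 RPM in fetal cells (SD, n = 4), a log2 fold change of 2.43 ± 0.14 (SE, adjusted p = 1.45e-09, edgeR). The 2 P7 libraries differed from each other more than the fetal libraries did, yet both were far above them. Cdc6 had 22.0 and 23.5 RPM at P7, against 1.4 to 7.5 RPM in fetal cells (log2 fold change 2.18 ± 0.40, adjusted p = 0.000186, edgeR). Cdc45 had 141 and 151 RPM at P7, against 38.8 to 54.4 RPM in fetal cells, and Mcm4 had 198 and 197 RPM, against 50.7 to 90.0 RPM. Their log2 fold changes were 1.64 for Cdc45 and 1.55 for Mcm4. Mcm10 had 90.4 and 90.9 RPM at P7, against 18.3 to 52.8 RPM in fetal cells. Cdt1 had 178 and 224 RPM at P7, against 68.1 to 87.3 RPM in fetal cells. The fold changes of Mcm10 and Cdt1 were 1.54 and 1.34 (log2). Mcm5 followed with 1.44, and Mcm6 with 1.01, at 340 and 330 RPM at P7, against 149 to 182 RPM in fetal cells. Mcm7 moved least, with 403 and 415 RPM at P7, against 241 to 270 RPM in fetal cells (log2 fold change 0.66 ± 0.10, adjusted p = 2.81e-05, edgeR).

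**Figure D3:**
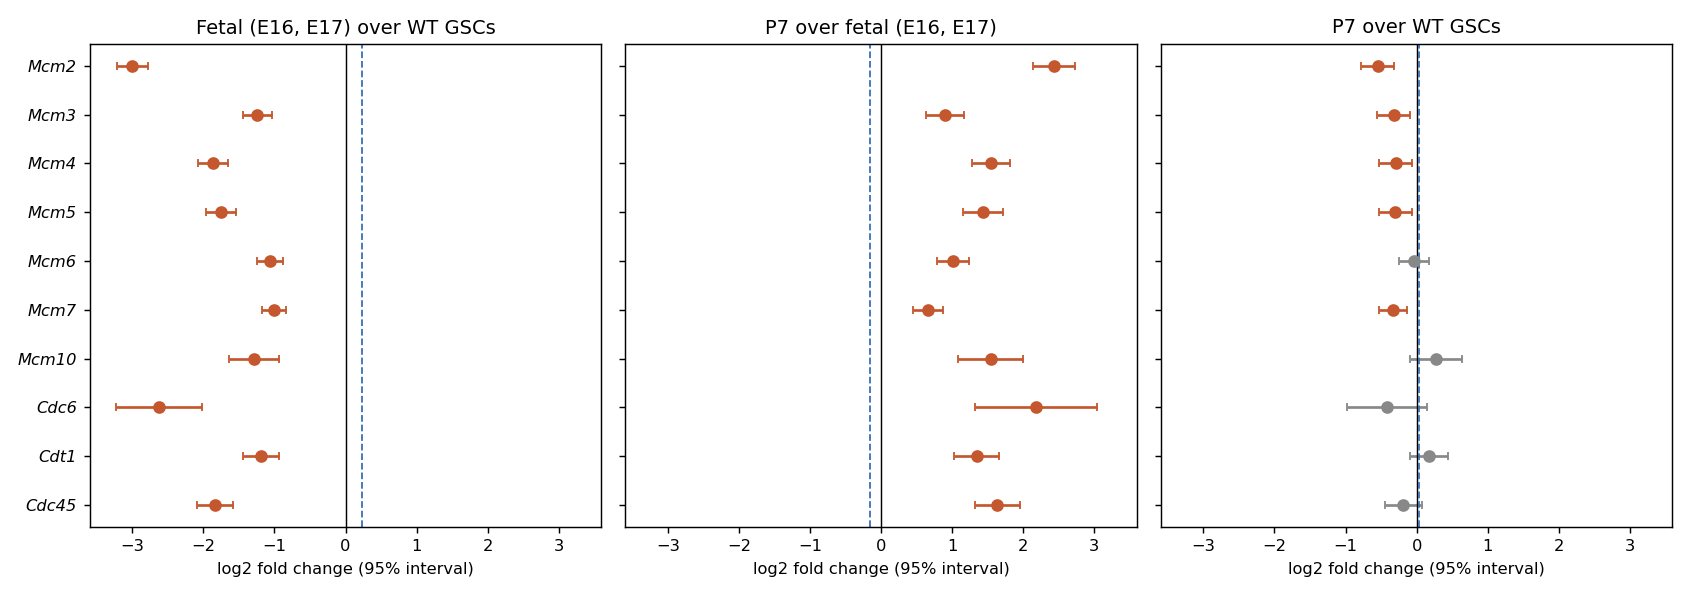
Log2 fold change (x axis) with its 95% interval for each licensing gene, in fetal cells over WT GSCs, P7 over fetal cells and P7 over WT GSCs under TMM scaling; red marks an adjusted p under 0.05, grey one at or above it, and the dashed line the median of all genes. The 10 genes lie between -3.00 and -1.01 in the left panel and between 0.66 and 2.43 in the middle panel, and ERCC scaling moves the genes of a panel together with the dashed line.

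Markers of other testis cells also differed between these libraries. The summed level of 7 Sertoli cell markers was 126 to 151 RPM in fetal and 60.2 to 90.3 RPM in P7 libraries, against 26.4 to 32.4 RPM in WT GSCs. Clu carried most of that sum, with a mean of 96.8 RPM in fetal and 32.2 RPM in P7 cells, against 1.56 RPM in WT GSCs. The other 6 summed to 29.6 to 49.7 RPM in fetal and 37.2 to 48.8 RPM in P7 libraries, against 24.8 to 30.9 RPM in WT GSCs. Of the 6 that could be tested, 3 were higher and 1 (Wt1) was lower in fetal cells than in WT GSCs. Over all genes 41.9% were called higher and 32.3% lower. Of the same 6 markers, 1 (Clu) was lower at P7 than in fetal cells, where 39.7% of all genes were called lower. Amh was at 0 in fetal cells and in WT GSCs. Summed levels of 4 endothelial markers were 67.1 to 120 RPM in fetal and 14.5 to 14.8 RPM in P7 libraries, against 3.24 to 4.63 RPM in WT GSCs. The 5 erythroid markers summed to 90.2 to 273 RPM in fetal and 12.5 to 82.5 RPM in P7 libraries, against 0.249 to 0.272 RPM in WT GSCs, where 4 of the 5 were at 0. Levels of 6 fibroblast and feeder markers were 145 to 318 RPM in fetal and 107 to 128 RPM in P7 libraries, against 75.0 to 78.7 RPM in WT GSCs. The part of these cells in the licensing results was not tested.

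The 5 germ cell markers summed to 2472 to 3138 RPM in fetal and 3347 to 3397 RPM in P7 libraries, against 3106 to 3424 RPM in WT GSCs. Single markers moved within that sum. In fetal cells against WT GSCs 1 was called higher and 1 lower, where 41.9% and 32.3% of all genes were. At P7 against fetal cells 2 were higher and 3 lower (32.7% and 39.7% of all genes). Against WT GSCs, P7 cells also had 2 higher and 3 lower (16% and 15% of all genes). The 5 markers of undifferentiated spermatogonia summed to 79.0 to 116 RPM in fetal and 699 to 813 RPM in P7 libraries, against 419 to 431 RPM in WT GSCs. All 5 were higher at P7 than in fetal cells (32.7% of all genes). All 5 were lower in fetal cells than in WT GSCs (32.3%), and 4 were higher at P7 than in WT GSCs (16%). Of 4 markers of fetal male germ cells, 2 were higher and 2 were lower in fetal cells than in WT GSCs. Dnmt3l, a cofactor of DNA methylation in germ cells, averaged 856 RPM in fetal and 8.56 RPM in P7 cells, against 1.74 RPM in WT GSCs, and Piwil4, a piRNA pathway gene, 531 RPM in fetal and 63.6 RPM in P7 cells, against 28.8 RPM in WT GSCs. The germ cell RNA-binding protein genes Nanos2 and Nanos3 were the 2 lower ones: Nanos2 averaged 0.75 RPM in fetal and 9.82 RPM in P7 cells, against 11.4 RPM in WT GSCs, and Nanos3 2.72 RPM in fetal and 54.9 RPM in P7 cells, against 58.4 RPM in WT GSCs. The floor of 3 counts was 1.06 to 1.73 RPM in fetal libraries. The fetal mean of Nanos2 lay below it and that of Nanos3 close to it. These 4 were named after their values were seen.

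Between E17 and E16, 9 of the 10 genes were not called, and Mcm10 was called lower under TMM scaling, where 4.96% of 14776 genes were called lower; under ERCC scaling, which shifted the median of all genes by 3.02 (log2), all 10 were called higher. Mcm10 had 26.6 and 18.3 RPM at E17, against 30.3 and 52.8 RPM at E16. The E17 libraries lay below both E16 libraries, but the E16 pair was itself wide. The log2 fold change was -1.27 ± 0.30 (SE, adjusted p = 0.0173, edgeR), and the call was lost without E16 replicate 2 (-0.72, adjusted p = 0.0986) and without E17 replicate 2 (-1.01, adjusted p = 0.187). The intervals of the other 9 ran from -1.08 to 1.54 (log2), both ends belonging to Cdc6. In RPM, Mcm3, Mcm4 and Mcm6 were higher in both E17 libraries than in both E16 libraries, yet Mcm6 had a log2 fold change of -0.12, since TMM scaled the E17 libraries down relative to their read totals. Over all genes, 48.0% had both E17 libraries above both E16 libraries in RPM and 10.5% both below. Marker sums differed between the ages too. Fibroblast and feeder markers summed to 318 and 299 RPM at E17, against 169 and 145 RPM at E16. Erythroid markers had 90.2 and 107 RPM, against 139 and 273 RPM. Under TMM, 1 of 5 tested fibroblast and feeder markers was called higher, where 1.64% of all genes were. Called lower were 2 of 5 erythroid, 2 of 4 fetal male germ cell and 1 of 5 germ cell markers. Their part was not tested.

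Against WT GSCs, P7 germ cells differed by at most 0.55 on the log2 scale. Of the 10 genes, 5 were lower at P7, all of them ring subunits, against 15.0% of all genes called lower; ERCC scaling, which shifted the median of all genes by -0.46 (log2), called 8 lower. Mcm2 had 298 and 393 RPM at P7, against 456 and 468 RPM in WT GSCs, without overlap, as in 23.2% of all genes (log2 fold change -0.55 ± 0.11, adjusted p = 0.000221, edgeR). Mcm7 had 403 and 415 RPM at P7, against 477 and 462 RPM in WT GSCs (-0.33, adjusted p = 0.00797). Mcm3 (-0.32, adjusted p = 0.0259), Mcm5 (-0.30, adjusted p = 0.0437) and Mcm4 (-0.29, adjusted p = 0.0476) lay close to the threshold, and Mcm4 was lost with the replicate number as a block (adjusted p = 0.0566), leaving 4. Leaving out single libraries left 1 to 4 of the 5: Mcm2 alone without WT replicate 1 or without P7 replicate 1, Mcm2 and Mcm7 without WT replicate 2, and all but Mcm4 without P7 replicate 2. The lost genes then had adjusted p-values from 0.0612 to 0.349 (edgeR) and kept their direction. Mcm6, Mcm10, Cdc6, Cdt1 and Cdc45 were not called, with intervals between -0.97 and 0.63 (log2). Mcm6 had 340 and 330 RPM at P7, against 331 and 296 RPM in WT GSCs, and the libraries overlapped.

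In Stag3 KO GSCs, 3 of the 10 genes differed from WT GSCs, by 1.17-fold to 1.25-fold. With both KO lines pooled, Mcm5 and Mcm10 were higher and Mcm6 was lower than in WT GSCs, against 8.64% of 11890 genes called higher and 10.6% called lower. Mcm6 had 263 and 248 RPM in KO1 and 273 and 273 RPM in KO2 GSCs, against 331 and 296 RPM in WT GSCs. All 4 KO libraries lay below both WT libraries, and the WT pair spread more widely than either KO pair (log2 fold change -0.29 ± 0.08, SE, adjusted p = 0.00203, edgeR). Mcm5 had 293 and 315 RPM in KO1 and 282 and 289 RPM in KO2 GSCs, against 243.1 and 243.2 RPM in WT GSCs, again without overlap (0.23 ± 0.08, adjusted p = 0.0235). Mcm10 had 87.4 and 106 RPM in KO1 and 84.5 and 78.5 RPM in KO2 GSCs, against 63.4 and 73.5 RPM in WT GSCs, also without overlap (0.32 ± 0.12, adjusted p = 0.0402). Over all genes, 21.6% had every KO library above and 14.8% every KO library below the WT libraries. Markers of other cells moved as well: all 4 tested fibroblast and feeder markers were lower (median log2 fold change -1.64; the 6 listed summed to 23.3 to 32.1 RPM in KO GSCs, against 75.0 to 78.7 RPM in WT GSCs), and 2 of 4 tested Sertoli markers were higher (Clu and Aard) and 1 lower (Wt1), with sums of 38.3 to 60.0 RPM in KO GSCs, against 26.4 to 32.4 RPM in WT GSCs. Of 5 markers of undifferentiated spermatogonia, 3 were lower (Sall4, Zbtb16 and Lin28a) and 1 was higher (Etv5). Their sum was nonetheless higher, at 453 to 505 RPM in KO GSCs, against 419 to 431 RPM in WT GSCs. Of the 5 germ cell markers, 3 were lower. Calls against WT GSCs differed by line: 0 of the 5 germ cell markers were lower in KO1 and 3 in KO2. Between the lines 2 of them were higher in KO1, as 0.547% of all genes were. Of the 4 Sertoli markers 3 were higher and 0 lower in KO1, against 2 and 1 in KO2. Tested directly between the lines, 0 of these 4 were called, where 0.833% of all genes were. Over all genes 6.24% were higher and 7.40% lower in KO1, and 7.19% and 8.45% in KO2. These markers were named after their values were seen. Their part in the licensing differences was not tested. The MCM2-7 sum was 1978 to 2030 RPM in KO GSCs, against 1959 to 1966 RPM in WT GSCs, and Mcm6 made up 12.19% to 13.78% of it in KO GSCs, against 16.81% and 15.1% in WT GSCs.

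These calls were sensitive to the method. With DESeq2, Mcm6 alone was called, where 5.31% of all genes were called lower, and with ERCC scaling none was (Mcm6: adjusted p = 0.0536). The Mcm6 call was also lost without WT replicate 1 (-0.20, adjusted p = 0.0811). Mcm5 was lost without WT replicate 2 (0.19, adjusted p = 0.0938), without KO1 replicate 2 (0.20, adjusted p = 0.0993), without KO2 replicate 1 (0.22, adjusted p = 0.0968) and without KO2 replicate 2 (0.21, adjusted p = 0.125). Mcm10 was lost without WT replicate 1 (0.23, adjusted p = 0.266), without KO1 replicate 2 (0.25, adjusted p = 0.189), without KO2 replicate 1 (0.28, adjusted p = 0.149) and without KO2 replicate 2 (0.34, adjusted p = 0.0719). The remaining 7 genes were not called, and their intervals ran from -0.32 to 0.37 (log2). Mcm2 had an interval of -0.22 to 0.04 and Mcm7 one of -0.11 to 0.16 (log2). Mcm2 stood at 436 to 468 RPM in KO GSCs, against 456 and 468 RPM in WT GSCs. Cdc45 had 159 to 184 RPM in KO GSCs, against 148 and 155 RPM in WT GSCs, without overlap but with an adjusted p of 0.179 (edgeR).

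Taken singly, KO1 GSCs had Mcm5 (0.27, adjusted p = 0.0248) and Mcm10 (0.44, adjusted p = 0.016) higher and Mcm6 lower (-0.34, adjusted p = 0.00319; log2 fold changes, edgeR), where 6.24% of genes were called higher and 7.40% lower. ERCC scaling shifted the median of all genes by -0.10 (log2) in KO1 over WT and by -0.16 in KO1 over KO2. Without KO1 replicate 2 none of the 3 was called, with log2 fold changes of 0.22 for Mcm5, 0.30 for Mcm10 and -0.30 for Mcm6. Mcm5 in KO1 was also lost without WT replicate 2 (adjusted p = 0.0613) and without KO1 replicate 1 (0.0697), and Mcm6 (0.0549) and Mcm10 (0.107) without WT replicate 1. KO2 GSCs had only Mcm6 lower among the 10 genes (-0.24, adjusted p = 0.0395, edgeR), where 8.45% of genes were called lower. This call was lost without WT replicate 1 (-0.15) and without either KO2 library (-0.26 without replicate 1 and -0.25 without replicate 2), with adjusted p-values from 0.204 to 0.278 (edgeR). In KO2 GSCs, Mcm5 had a log2 fold change of 0.18 (adjusted p = 0.144) and Mcm10 one of 0.20 (adjusted p = 0.334). Between KO1 and KO2 none of the 10 was called by edgeR or by DESeq2, and 0 had an unadjusted p under 0.05, where 0.833% of all genes were called. The largest differences of KO1 from KO2 were 0.24 (log2) for Mcm10, with an interval of -0.02 to 0.50, and -0.23 for Cdc6, with an interval of -0.63 to 0.18, so differences of this size and larger lie inside the intervals.

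**Figure D4:**
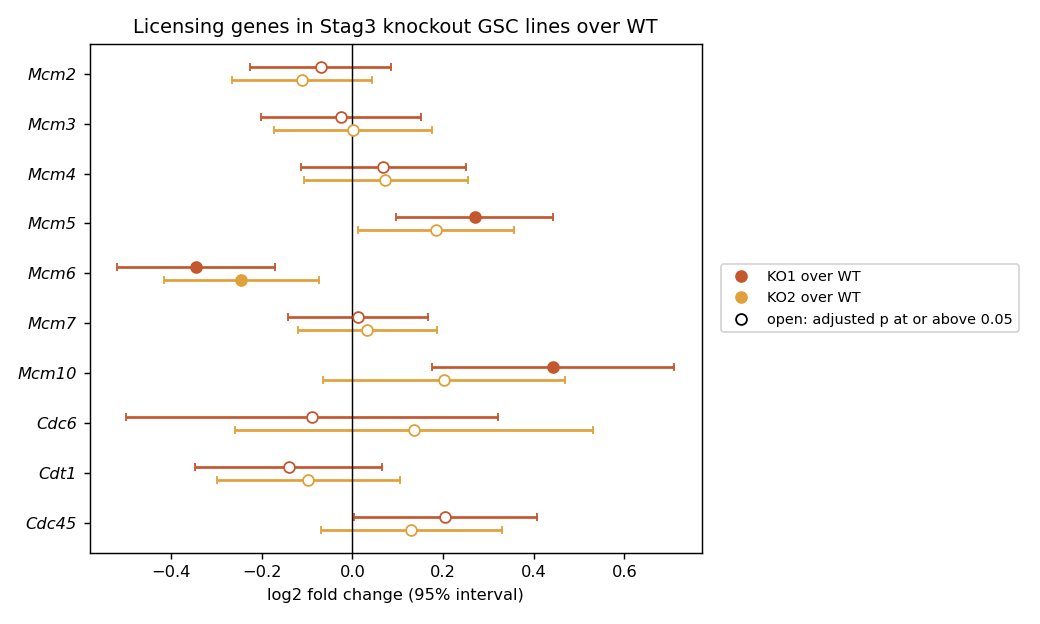
Log2 fold change (x axis) with its 95% interval for each licensing gene in KO1 and in KO2 GSCs over WT GSCs under TMM scaling; filled points have an adjusted p under 0.05. Mcm6 lies below 0 in both lines (-0.34 and -0.24), and Mcm5 (0.27) and Mcm10 (0.44) are filled in KO1 alone; with ERCC scaling only Mcm6 in KO1 is called.

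Genes that act with the 10 were examined as lists, described by counts and medians. In fetal cells against WT GSCs under TMM, 8 of 10 origin recognition and MCM loading partners were lower (median log2 fold change -1.80). Also lower were 10 of 12 origin firing genes (-1.07) and 22 of 23 fork progression genes (-1.10). So were all 6 nucleotide supply genes (-2.29) and 13 of 15 mitosis genes (-2.08). Over all genes 32.3% were called lower, with a median of 0.23. Under ERCC scaling 14505 of the 14663 genes called were higher, so these directions too are relative to other genes. Orc1, the largest subunit of the origin recognition complex, fell by 2.74 on the log2 scale and Gmnn, the gene for geminin, by 2.22. Tipin, of the fork protection complex, had -3.18, and Fen1, the flap nuclease, -2.33. Rrm2, a ribonucleotide reductase subunit, had -3.46 and Tyms, thymidylate synthase, -3.16. Pole, the catalytic subunit of DNA polymerase epsilon, was the 1 fork gene that was higher (0.42 ± 0.11, adjusted p = 0.000608, edgeR). Of 9 tested brakes and breakdown factors 6 were lower and 1 was higher, where 41.9% of all genes were called higher. Cdkn1c, which encodes the CDK inhibitor p57, was the higher one (2.85 ± 0.16, adjusted p = 1.02e-17, edgeR). Among the lower ones were Cdkn1a, which encodes the CDK inhibitor p21 (-2.14 ± 0.30, adjusted p = 7.48e-08, edgeR), and Skp2, a ubiquitin ligase subunit that targets CDT1 (-1.86). Of 14 E2F, G1 to S cyclin and pocket protein genes, 8 were lower, among them the pocket protein gene Rbl1 (-2.21) and Cdk2 (-2.11), and 2 were higher, among them E2f6 (0.83).

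At P7 against fetal cells under TMM, 8 of 10 loading partners (median 1.27) and 10 of 12 firing genes (1.04) were higher. So were 16 of 23 fork genes (0.92), all 6 nucleotide supply genes (1.41) and all 15 mitosis genes (1.25). In these lists no gene was called lower. Over all genes 32.7% were called higher, with a median of -0.15, while under ERCC scaling 14002 of the 14131 genes called were lower. Orc1 had a log2 fold change of 2.84 and Orc5, another subunit of the same complex, 1.92. Topbp1, which helps to assemble the CMG helicase, had 1.91 and Gins2, a subunit of GINS, 1.76. Aurkb, a mitotic kinase, had 3.47 and Mki67, a marker of cycling cells, 3.08. Of the 9 brakes and breakdown factors 3 were higher, among them Skp2 (1.95), and 2 were lower, Cdkn1c (-1.27) and Ddb1 (-0.27), where 39.7% of all genes were called lower. Of 14 E2F, G1 to S cyclin and pocket protein genes 10 were higher, among them Rbl1 (2.28) and E2f3 (1.49), and 1 was lower. Outside the MCM2-7 ring, Mcm8, which works in DNA repair, was higher at P7 (0.55 ± 0.17, adjusted p = 0.00843, edgeR) and Mcm9 was not called (0.26). Mcmdc2, a meiotic relative, was lower (-2.68 ± 0.50, adjusted p = 0.000208, edgeR). Mcmdc2 was low throughout, with 3.29 and 1.24 RPM at P7, against 10.6 to 22.9 RPM in fetal libraries. The floor of 3 counts at P7 was 0.927 to 0.987 RPM. Mcm9 and Mcmdc2 were added to the named genes after their values were seen.

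**Figure D5:**
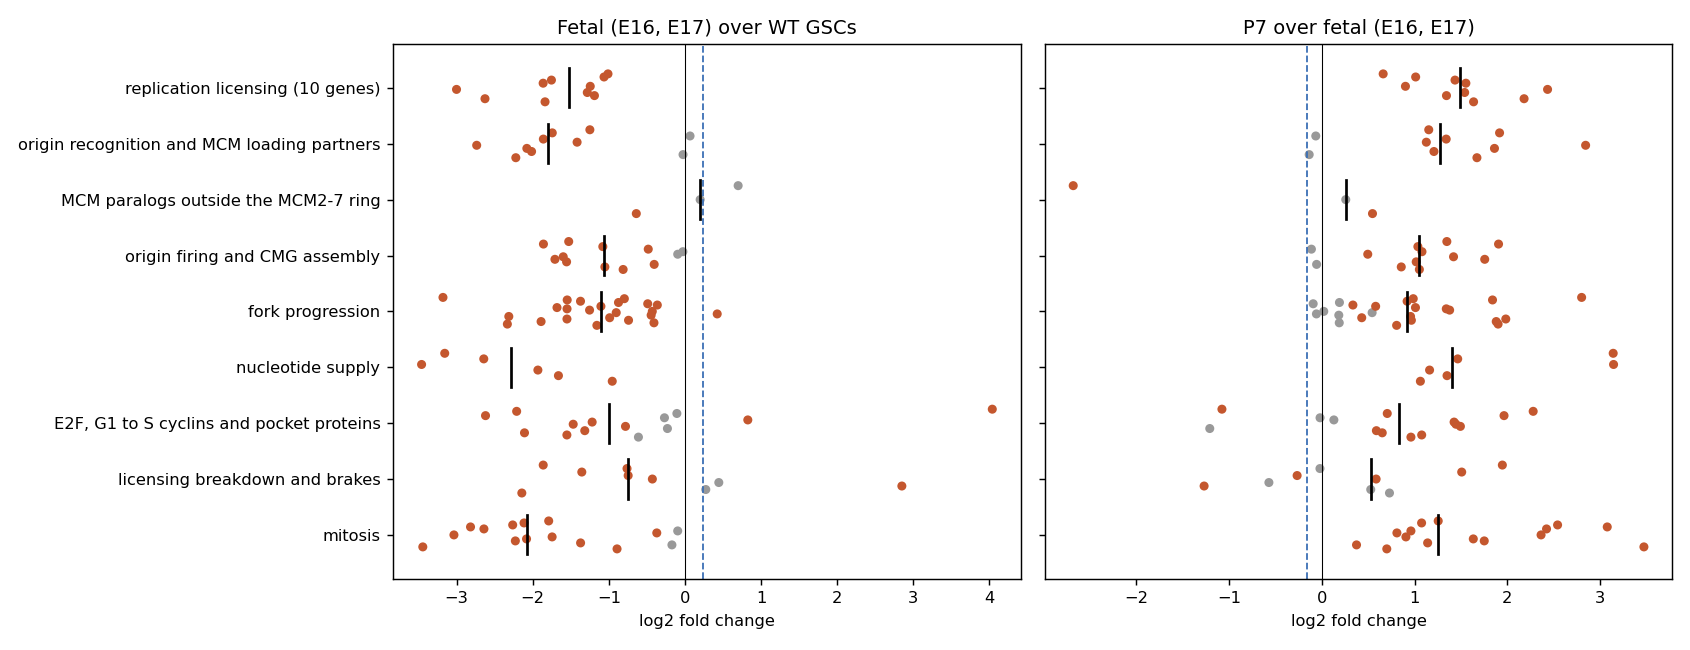
Log2 fold change (x axis) of each tested gene of the licensing set and of 8 related lists, in fetal cells over WT GSCs (left) and P7 over fetal cells (right) under TMM scaling; red has an adjusted p under 0.05, black bars are list medians and the dashed line is the median of all genes. The nucleotide supply genes have a median of -2.29 on the left and 1.41 on the right, and ERCC scaling moves points and dashed line together.

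At P7 against WT GSCs, 10 of 23 fork genes were lower and 1 was higher (median -0.33), and 6 of 15 mitosis genes were lower and 2 higher (-0.20) under TMM, where over all genes 15.0% were called lower and 2538 of 15827 higher, with the ERCC shift of -0.46 applying to these genes too. Of 14 E2F, G1 to S cyclin and pocket protein genes, 4 were higher and 2 lower. Top2a, the mitotic topoisomerase, averaged 283 ± 12.8 RPM at P7 and 524 ± 18.6 RPM in WT GSCs (SD, n = 2 each). Cenpf, a kinetochore protein gene, averaged 280 ± 13.8 RPM at P7 and 139 ± 8.07 RPM in WT GSCs (SD, n = 2 each). Top2a was lower (-1.02, adjusted p = 4.42e-10, edgeR) and Cenpf higher (0.88, adjusted p = 2.52e-07, edgeR).

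In Stag3 KO against WT GSCs, 2 of 10 loading partners, 2 of 12 firing genes, 6 of 23 fork genes, 3 of 6 nucleotide supply genes and 5 of 15 mitosis genes were higher and none of these was lower under TMM, beside the 8.64% and 10.6% given above. In the same order of lists, KO1 alone had 1, 1, 7, 1 and 2 higher, where 6.24% of all genes were. KO2 alone had 1, 2, 6, 3 and 5 higher, where 7.19% of all genes were. The lists were not recomputed with DESeq2 or ERCC scaling. Under these, 452 and 569 of all genes were called higher in KO against WT, in place of 1027. Mki67 averaged 201 ± 17.1 RPM in KO (SD, n = 4) and 120 ± 5.65 RPM in WT GSCs (SD, n = 2), a log2 fold change of 0.69 ± 0.09 (adjusted p = 7.57e-10, edgeR). Cdk1, the mitotic kinase, had 0.55, Rfc3, a clamp loader subunit, 0.47, and Prim1, a primase subunit, 0.43. Of the brakes and breakdown factors, Dtl, the substrate receptor that marks CDT1 for destruction, was higher (0.52), whereas its partners Cul4a (-0.50) and Ddb1 (-0.33) were lower. Of 14 E2F, G1 to S cyclin and pocket protein genes 3 were higher, among them E2f7 (0.58) and E2f3 (0.53), and 1, E2f6, was lower (-0.50 ± 0.13, adjusted p = 0.00319, edgeR). In single lines, 1 of the 14 was higher in KO1 and 1 in KO2, the latter being E2f3 (0.626). E2f6 was lower in both lines (-0.495 in KO1 and -0.508 in KO2).

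The mean profile of the 10 genes over the 6 group means was most like that of Rfc1, a clamp loader subunit, Parp2, a poly(ADP-ribose) polymerase, Elavl1, an RNA-binding protein gene, Dbnl and Fmnl3. Likeness was the root mean square distance between centred log2(RPM + 1) profiles, which was 0.06 for Rfc1 and 0.07 for each of the other 4, among 7500 genes with a median distance of 0.67. Of the 10 themselves, Cdc45 (0.14) and Mcm5 (0.15) lay nearest to their common profile and Mcm2 (0.56) farthest from it. Rfc1 averaged 62.6 RPM at E16, 66.9 RPM at E17, 166 RPM at P7, 183 RPM in KO1 and 178 RPM in KO2 GSCs, against 173 RPM in WT GSCs.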

How the data were processed

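SC3-seq libraries from 12 samples in 6 groups of 2 were analysed. Tools named per the submitters' processing notes were HTSeq 0.9.1, Salmon 1.4.0, TopHat2 2.1.1 and cutadapt 1.18, on GRCm38.p6; strand use was not given in the sources used here. Deposited files hold the authors' whole-number read counts per gene, including ERCC spike-ins, and a normalised column that was not used. WT replicate numbers follow the sample titles, which run opposite to the file labels.

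The GSC libraries (35642 genes), the in vivo libraries and all 12 libraries (31675 genes shared by Entrez ID, ERCC rows left out) were fitted separately with edgeR 4.0.16 in R 4.3.3: TMM scaling, the default expression filter, glmQLFit and glmQLFTest, with a group factor and Benjamini-Hochberg adjustment over all genes at 0.05. E17 over E16 and P7 over fetal came from the in vivo fit, and comparisons with WT GSCs in vivo from the 12-library fit. RPM are counts over the summed gene count of the library (mitochondrial genes, spike-ins and transgenes left out) times 1000000, as in the authors' column, with a floor (3 counts) of 0.748 to 1.73 RPM; SDs over 2 libraries are rough. On simulated data with 200 genes changed by 1 (log2), 75.0% (KO against WT), 54.8% (P7 against fetal) and 56.5% (fetal against WT GSCs) of those passing the filter were recovered. The licensing changes called in KO against WT were smaller than 1, and recovery of smaller changes was not simulated. Most genes were left unchanged in the simulation, unlike in the in vivo comparisons, so it does not test the scaling. Duplicate libraries were looked for and none was found.

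Alternatives were DESeq2 1.42.0, its size factors, ERCC totals, no filter, a replicate block, other sets of libraries in the fit, and leaving out each library. Same-numbered libraries deviated with correlations of -0.024 to 0.058 over 6 pairs of groups and share only a number. The 10 genes are always named; from other lists, up to 2 called genes per direction with the largest change and at least 20 RPM in the higher group. The genes, lists and rules were chosen with earlier results of these data known.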

Additional observations from a re-analysis of the deposited data

How the results depend on the processing

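Of 880 recomputed values of single licensing genes, 745 kept direction and side of the threshold, 72 reversed, 54 lost and 9 gained a call. Outside ERCC scaling no called value reversed, and P7 against fetal (130 of 130) and fetal against WT GSCs (110 of 110) kept every call.

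ERCC totals reversed 34 values; the amount of spike-in added was not given in the sources used here, and the cause was not tested. P7 against fetal became -0.74 for Mcm2, -2.29 for Mcm3, -1.62 for Mcm4, -1.74 for Mcm5, -2.16 for Mcm6, -2.52 for Mcm7, -1.61 for Mcm10, -1.01 for Cdc6, -1.80 for Cdt1 and -1.51 for Cdc45. Fetal against WT GSCs became 1.42 for Mcm3, 0.77 for Mcm4, 0.90 for Mcm5, 1.58 for Mcm6, 1.64 for Mcm7, 1.33 for Mcm10, 0.009 for Cdc6, 1.44 for Cdt1 and 0.78 for Cdc45. E17 against E16 became 2.74 for Mcm2, 2.49 for Mcm5, 2.90 for Mcm6, 2.70 for Mcm7, 1.83 for Mcm10, 2.71 for Cdt1 and 2.92 for Cdc45, with 10 genes called. P7 against WT GSCs became -0.28 for Mcm10 and -0.36 for Cdt1, with 8 called. KO against WT became -0.003 for Cdc6, with 0 called; KO1 against WT -0.036 for Mcm4 and -0.091 for Mcm7, with 1 called; KO1 against KO2 -0.127 for Mcm2, -0.079 for Mcm5 and -0.095 for Cdc45; KO2 against WT had 0 called.

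In the GSC comparisons 3 genes were called in KO against WT, 3 in KO1 and 1 in KO2. DESeq2 called 1, 1 and 0, and the fit of all 12 libraries 1, 1 and 0; without a filter KO2 against WT had 0 and KO against WT 2, with Mcm10 lost (0.32, adjusted p = 0.0686, edgeR), and P7 against WT GSCs 4, with Mcm4 lost (adjusted p = 0.0607). In E17 against E16 the fit of all 12 libraries called 2 (Mcm5 and Mcm10). Mcm3 in KO2 against WT (0.002) turned to -0.004 with DESeq2, its size factors or no filter and to -0.011 with 12 libraries, and Mcm7 in KO1 to -0.019 with 12 libraries.

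Leaving out 1 library gave 1 to 3 called genes in KO against WT, 0 to 2 in KO1, 0 to 1 in KO2, 0 to 2 in E17 against E16 and 1 to 4 in P7 against WT GSCs. Genes that were not called crossed 0: in KO against WT, Mcm3 (-0.033 to 0.010), Mcm7 (-0.036 to 0.059) and Cdc6 (-0.226 to 0.322). In KO1 these were Mcm3 (-0.067 to 0.018), Mcm4 (-0.029 to 0.156), Mcm7 (-0.044 to 0.059) and Cdc6 (-0.337 to 0.211), and in KO2 Mcm3 (-0.020 to -0.001), Mcm7 (-0.027 to 0.067) and Cdc6 (-0.116 to 0.432). For KO1 against KO2 they were Mcm3 (-0.069 to 0.016), Mcm4 (-0.103 to 0.082), Mcm7 (-0.068 to 0.030), Cdt1 (-0.105 to 0.024) and Cdc45 (-0.025 to 0.191). For E17 against E16 they were Mcm3 (-0.042 to 0.329), Cdc6 (-0.575 to 1.68) and Cdc45 (-0.284 to 0.098), and for P7 against WT GSCs Mcm6 (-0.129 to 0.057) and Cdt1 (-0.040 to 0.306).

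With the replicate number as a block, KO against WT again had 3 genes called and P7 against WT GSCs had 4 in place of 5, the lost gene being Mcm4 (-0.29, adjusted p = 0.0566, edgeR).

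Counts over all genes moved by over 1.5 times in places. KO against WT had 2286 genes called, against 1083 with DESeq2, 1447 with ERCC totals and 1421 with 12 libraries. KO1 against WT had 1622 (679 with DESeq2, 858 with 12 libraries, 859 and 875 without a KO1 library), and KO2 against WT 1860 (864, 1008 and 1191 with DESeq2, 12 libraries and ERCC totals, 905 and 977 without a KO2 library). KO1 against KO2 had 99 (35 to 45 with DESeq2, 12 libraries or 1 library fewer). E17 against E16 had 975 (602 with DESeq2, 1763 with 12 libraries, 14508 with ERCC totals, and 232 to 3645 without 1 library). P7 against WT GSCs had 4909 (3200 without P7 replicate 1).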
